A study of Mus musculus with 17 samples.

Results

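The samples compared here were the 3 arrays of mouse 2-cell embryos and the 4 arrays of mouse oocytes, 7 of the 17 Affymetrix MG-U74Av2 arrays of the series. They were taken by their sample titles, with no choice of arrays by measured value. Probe sets were chosen in part by measured value. Besides the array's controls, probe sets that did not exceed a signal of 41.1 on 3 or more of the 17 arrays were dropped. This kept 8067 of 12488 probe sets, and the shares below refer to those kept. The question was which transcripts had a net gain or a net loss by the 2-cell stage and which had only dipped or risen in passing at the 1-cell stage, for which the 3 arrays of 1-cell embryos were read alongside. The other 7 arrays, of 8-cell embryos and blastocysts, entered the fit through its shared estimate of the spread and are not described. All groups shared the same preparation: per the labels, total RNA was amplified by in vitro transcription in 2 rounds. The labels gave no strain, age, treatment, time after fertilisation or stage of oocyte maturation, and they did not say whether the samples of a stage came from separate females or pools. The p-values thus speak only to the variation among these arrays, and that may be technical in part or whole.

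A mouse oocyte grows while storing mRNA and protein, and stops transcribing before it is ovulated. The first cell cycle after fertilisation runs largely on that store, which is polyadenylated, translated and then degraded in a set order, and the main wave of transcription from the embryo's own genome opens at the 2-cell stage. A comparison of the 2-cell embryo with the oocyte therefore spans both the loss of the maternal store and the first products of the embryo.

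A value is a probe set's signal intensity as deposited, on a linear scale on which every array had been brought to the same average. Differences were taken on log2(signal + 11), which understates the change of dim genes, and a fold is 2 to the power of that difference. Signals under 41.1, the median of all values, are called dim here. The deposited table held no detection calls, so the size of a change that starts or ends in dim signals depends on the offset. The 4 oocyte arrays correlated with each other at 0.970 to 0.979 across probe sets, the 3 2-cell arrays at 0.935 to 0.959, and a 2-cell with an oocyte array at 0.712 to 0.778. The signal of 9 control probe sets for spiked transcripts was 0.91 higher (log2) on the 2-cell than on the oocyte arrays. Scaling by these spikes moved the median difference of all tested probe sets from 0.09 to -0.70. These are hybridisation controls, and the sources used here did not say at which step or per what amount they were added. Neither scaling therefore gives transcripts per embryo. Where spike scaling turned a direction, its value stands beside the result. The ratio of 3′ to 5′ control signal was 3.49 to 4.73 on oocyte and 3.15 to 4.95 on 2-cell arrays for actin, and 4.05 to 5.01 against 5.64 to 8.65 for Gapdh. The part of these differences between arrays in the results was not tested. In samples of whole embryos, fewer transcripts in every cell and fewer cells with the transcript cannot be told apart. Falls, losses, dips and rises below are changes of signal. Polyadenylation was not measured, and its part in them was not tested.

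Between the oocyte and the 2-cell embryo, 3958 of 8067 probe sets (49.1%) were called different by limma at an adjusted p under 0.05. The 2-cell signal was higher for 2085 probe sets (25.8%) and lower for 1873 (23.2%). At least 2-fold changes were called for 1291 higher (16%) and 1134 lower (14.1%) probe sets, and at least 4-fold changes for 470 higher (5.83%) and 307 lower (3.81%). The share of calls that were higher, 52.7%, depended on how the arrays were scaled: it was 40% (1573 higher, 2363 lower) after centring each array on its median and 17.2% (777 higher, 3743 lower) after scaling by the spikes. For 3301 probe sets (40.9%) the 95% interval of the difference lay within 2-fold, so a net change larger than that was outside their interval. The signals of the 2 stages did not overlap for 4390 probe sets (54.4%). By gene, each read through its brightest probe set with a single symbol, 1537 of 6044 were called higher (25.4%) and 1488 lower (24.6%), with a median difference of 0.06. The counts of each gene list below are to be read beside these shares.

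**Figure D1:**
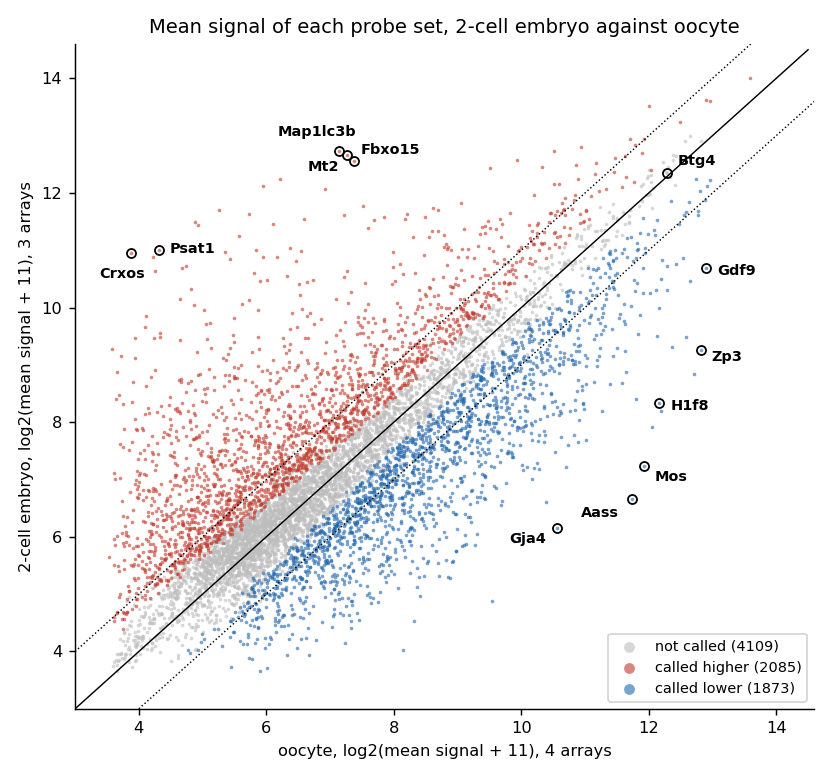
Mean signal of each of the 8067 probe sets on the 4 oocyte arrays (x axis) and the 3 2-cell arrays (y axis), both as log2(signal + 11), coloured by the limma call at an adjusted p under 0.05; the solid line marks equal signal and the dotted lines a 2-fold difference. The 2085 probe sets called higher reach far above the line from dim oocyte signals (Crxos, Psat1), while the 1873 called lower include the brightest oocyte transcripts (Zp3, Gdf9); Btg4 lies near the line (called lower, at -0.85, after spike scaling).

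The path through the 1-cell stage separated net from passing changes. Of 1597 probe sets (19.8%) called lower at the 1-cell stage than in oocytes, 841 were also called lower at the 2-cell stage. In net, 304 were called higher and 452 were not called. The net interval of 436 of the 1597, whether called in net or not, lay inside 2-fold of the oocyte. Of 1397 called higher at the 1-cell stage (17.3%), 508 were called higher at the 2-cell stage, 290 lower, and 599 were not called. Of the same 1397, called in net or not, 612 lay inside 2-fold. A passing dip was counted where a probe set was called lower at the 1-cell stage, called higher from there to the 2-cell stage, and held the whole interval of its net difference within 2-fold: 346 probe sets met this (4.29%). A passing rise, the reverse, was met by 449 (5.57%). A further path, a dip followed by a called net gain, was taken by 304 probe sets (3.77%), and a rise followed by a net loss by 290 (3.59%). Some 49 dips and 65 rises inside the 2-fold bound were nonetheless called in the net comparison. Most net gains were not called at the 1-cell stage: 1273 of the 2085 were not called there and 508 were already higher. Of the 1273, 270 were not called from the 1-cell to the 2-cell stage either. Net losses were split more evenly, with 841 of the 1873 already lower at the 1-cell stage and 742 not called. Of gains and losses together, 433 had neither step called, so their change is not placed before or after the 1-cell stage. The 3 comparisons share arrays, so these counts are descriptions. After spike scaling the passing rises numbered 4 and the rises with a net loss 1, so these counts depended on how the arrays were scaled. A rise here is a rise on arrays brought to the same average. The 18S ribosomal RNA control signal was 4.93 higher (log2) on 1-cell than on oocyte arrays and 1.70 higher on 2-cell arrays, and its part in the dips was not tested.

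The transcripts of the egg coat fell. The zona pellucida, the glycoprotein shell that binds sperm, is made by the growing oocyte, and the oocyte arrays carried its transcripts at high signal, as the label of those samples implies. Zp3 (probe set 102675_at) gave 7247, 6749.7, 7352 and 7428 on the oocyte arrays and 477, 410 and 913 on the 2-cell arrays, and fell by 3.65 on the log2 scale (SE 0.22, adjusted p = 1.25e-11). No 2-cell array came within reach of the lowest oocyte array. Zp1 went from 2202, 1593, 1605 and 1357 to 156, 201 and 191 and fell by 3.12 (SE 0.24, adjusted p = 4.59e-10). Zp2 had 2901, 2792, 2647 and 3222 in oocytes and 570.1, 532 and 745 at the 2-cell stage, and fell by 2.22 (SE 0.20, adjusted p = 7.14e-09). For all 3, most of the loss was already present in 1-cell embryos, where the difference from oocytes was -2.42 for Zp3, -2.18 for Zp1 and -2.42 for Zp2. The tetraspanin Cd9, which the egg membrane needs to fuse with sperm, was a different case: it dipped to 121, 194 and 228 at the 1-cell stage and was back at 425, 381 and 377 at the 2-cell stage, against 513, 512, 398 and 484 in oocytes. The net difference of Cd9 was -0.26 (95% interval -0.68 to 0.16) and was not called, but it was called lower, at -1.15, after spike scaling.

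Oocyte growth factors, gap junctions and oocyte transcription factors fell in 10 of 14 tested members, rose in 2 and were not called in 2, with a median of -1.52. Gja4, the gap junction protein that couples the oocyte to its granulosa cells, had oocyte signals of 1470.3, 1390.8, 1785 and 1331 and 2-cell signals of 70, 45.9 and 64, a difference of -4.41 (SE 0.18, adjusted p = 2.69e-14). Rgs2, a brake on G-protein signalling, had not fallen in 1-cell embryos (7112, 5803 and 5320.4 against 3537, 5273, 3296 and 4797 in oocytes) and gave 316, 149 and 231 at the 2-cell stage, 17.8-fold under the oocyte (SE 0.25 on the log2 scale, adjusted p = 1.18e-11). The linker histone of the oocyte, H1f8, was called higher at the 1-cell stage, with 10752, 8345 and 6905 against 4004, 5213, 4195 and 4958, before its 2-cell signals of 306, 258 and 370.4 gave a net fall by 3.84 (SE 0.22, adjusted p = 4.69e-12). Thus the signal of Gja4 had begun to fall by the 1-cell stage, while that of Rgs2 and H1f8 was lost between the 1-cell and the 2-cell stage. Gdf9, the growth factor by which the oocyte instructs its follicle, took the path of H1f8: 7422, 7299, 7999.5 and 7919 in oocytes, 11968, 10737 and 9489 at the 1-cell stage and 1883, 1671 and 1395 at the 2-cell stage (net -2.22, SE 0.15, adjusted p = 8.28e-11). Its partner Bmp15 did not pass the test. Bmp15 gave 1338, 1284, 1286 and 843 in oocytes and 1308, 880.2 and 436 at the 2-cell stage, ranges that overlap, with a net difference of -0.55 (SE 0.26, adjusted p = 0.0876). Both stages were spread, and Bmp15 was called lower without the first 2-cell array (-0.90), without the fourth oocyte array (-0.70), and after median centring (-0.77) or spike scaling (-1.44). Fgf8, a fibroblast growth factor, and Kit, the receptor of stem cell factor, fell by 2.86 and 1.51. The members that rose were Igf2r and Omt2b, a transcript named for oocyte maturation, whose gain of 1.02 (SE 0.19, adjusted p = 1.40e-04) was no longer called after spike scaling (0.12).

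Meiosis genes were divided: 10 of 24 fell, 6 rose and 8 were not called (14 lower and 1 higher after spike scaling), and the share that rose was near the 25.4% of all genes. Mos (96521_at), the kinase that holds the egg in metaphase, had oocyte signals of 3622, 4323, 3858 and 3731, 1-cell signals of 2204, 2011 and 2083 and 2-cell signals of 74.2, 97.9 and 246. Its net fall was 29.1-fold, or 4.86 on the log2 scale (SE 0.28, adjusted p = 8.86e-12), and the other probe set of the gene gave -4.92. The third 2-cell array held more Mos than the other 2, and all 3 lay far under the oocyte arrays. Plat, tissue plasminogen activator, whose stored mRNA is translated as the oocyte matures, was not called different at the 1-cell stage (4275, 4733 and 4393 against 6435, 6856, 7103 and 6327) and then dropped to 363, 374 and 603 (net -3.91, SE 0.25, adjusted p = 4.65e-11). On the other side stood 2 drivers of entry into mitosis. Cdk1 had 1513, 2001, 1077 and 987 in oocytes, dipped to 383, 411 and 517 and reached 3051, 3476 and 3132 at the 2-cell stage (net 1.26, adjusted p = 1.11e-05, no longer called after spike scaling, 0.36). Cdc25c, the phosphatase that activates it, went the same way, from 156, 160.4, 169.5 and 163 through 53.2, 52.6 and 77.1 to 728, 995 and 988 (net 2.39, adjusted p = 3.95e-10).

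Among the largest falls over all genes were several with no listed place in the oocyte. Aass, the first enzyme of lysine breakdown, had the largest: 3214, 3369, 3330.1 and 3679.8 in oocytes and 102, 55.8 and 114 at the 2-cell stage, a difference of -5.12 (SE 0.25, adjusted p = 5.76e-13). In 1-cell embryos Aass stood between, at 950.3, 1168 and 895. Setd4, a SET-domain methyltransferase, had mostly gone by the 1-cell stage: 4571, 4117, 5252 and 4766 in oocytes, 643, 851 and 1103 at the 1-cell and 356, 254 and 240.2 at the 2-cell stage (net -4.01). Crabp2, a carrier of retinoic acid, kept its oocyte level until the 1-cell stage (991, 1118 and 1088, difference 0.21, not called) and then fell to 67.6, 39.2 and 41.9 (net -3.97). Xrcc5, a subunit of the DNA end-binding Ku complex, was lost before the 1-cell stage, going from 310.1, 297, 314 and 308 to 28.4, 10.7 and 7.4 and 11.2, 4.9 and 20 (net -3.84). Setd4, Crabp2 and Xrcc5 thus reached net falls of similar size at different times, Xrcc5 wholly by the 1-cell stage and Crabp2 wholly after it.

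**Figure D2:**
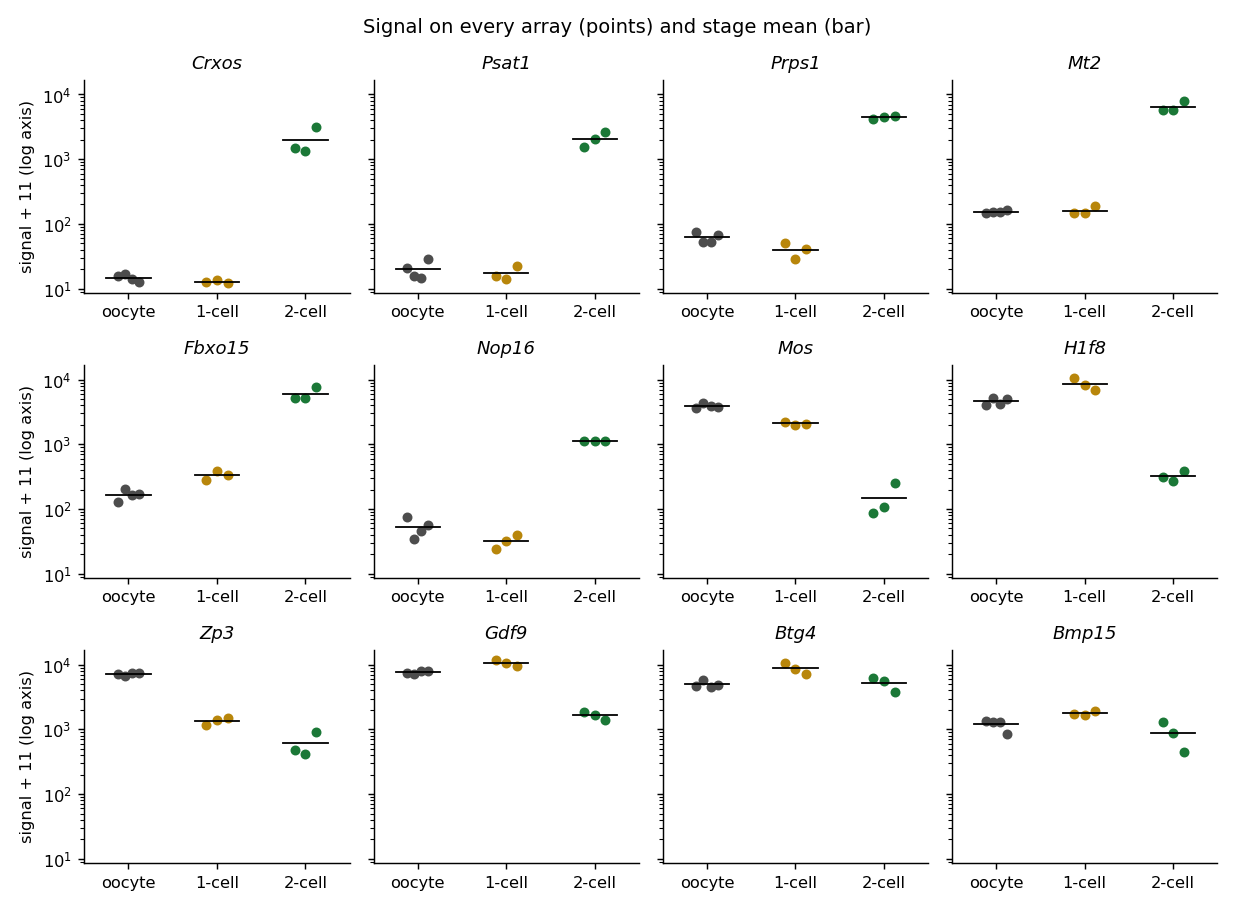
Signal of 12 genes on each oocyte, 1-cell and 2-cell array (points, signal + 11 on a log axis) with the stage mean (bar). Crxos, Psat1, Prps1, Mt2 and Nop16 rise only after the 1-cell stage and Fbxo15 also before it; Mos, H1f8, Zp3 and Gdf9 end lower than in oocytes; the 2-cell points of Btg4 and Bmp15 overlap the oocyte points (after spike scaling both are called lower, at -0.85 and -1.44).

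Not all bright maternal transcripts had gone by the 2-cell stage. Btg4, the adaptor that brings the deadenylase to maternal mRNAs, gave 4709, 5845, 4459 and 4850.4 in oocytes, 10751, 8444 and 7153 at the 1-cell stage and 6207, 5691 and 3793 at the 2-cell stage. Its net difference was 0.05 (95% interval -0.39 to 0.49), and it was called lower, at -0.85, after spike scaling. Tcl1, a cofactor of the kinase AKT that is loaded into the egg, had 3024, 3924, 3314 and 2984, then 6018, 7019.7 and 5993, then 3981, 2931 and 1673 (net -0.29, interval -0.82 to 0.25, called lower after spike scaling at -1.19). Its relative Tcl1b1 ended at 5849, 5133 and 4040.2 against 4105, 4465, 3837 and 3773 in oocytes (net 0.29, interval -0.04 to 0.63), was called higher without the third 2-cell array (0.44), and was -0.61, not called, after spike scaling. Dppa3, which shields maternal DNA methylation in the zygote, ended at 6192, 5583 and 6021 against 4088, 4910.3, 4590.4 and 5426 (net 0.33, interval -0.01 to 0.66; -0.58, not called, after spike scaling). These 4 transcripts rose relative to the rest of the array at the 1-cell stage and had net intervals within 2-fold. In the list of maternal-effect genes as a whole 5 of 21 fell, 4 rose and 12 were not called (12 lower and 0 higher after spike scaling), shares no higher than the 24.6% and 25.4% of all genes. Zfp57, which guards imprints, fell by 1.81 after a rise at the 1-cell stage, and Zbed3, which belongs to the subcortical complex, by 0.80. Uchl1, a deubiquitinase of the egg, fell by 1.18 (adjusted p = 0.0156), a call that was lost without the second (-1.06) or the third (-1.02) 2-cell array. Dnmt1, the maintenance DNA methyltransferase, fell from 2804, 2317, 3296 and 2293 to 405, 405 and 384 on its brightest probe set (-2.70, SE 0.17, adjusted p = 1.77e-11), but the other probe set rose by 1.07 (adjusted p = 0.00785), so the gene has no single direction here. The genes Ctcf and Smarca4, regulators of chromatin, rose by 1.5 and 1.14, and neither was called after spike scaling (0.63 and 0.27).

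The machinery that stores and destroys mRNA rose in 17 of 44 members and fell in 10 (5 higher and 22 lower after spike scaling). Of all genes 25.4% rose and 24.6% fell, so the share of the list that fell, 22.7%, was near that of all genes. Those lost included RNA regulators of the oocyte: Dazl fell by 1.68 on its brightest probe set (SE 0.40, adjusted p = 0.00146), with the other not called at -0.51. Dicer1, the nuclease that makes small RNAs, fell from 391, 353, 378 and 248 to 92.9, 66.2 and 40.8 (-2.22), and Cpeb1, which controls cytoplasmic polyadenylation, by 1.54. The decapping activator Dcp1a was higher at the 1-cell stage (2736, 2649.7 and 2223 against 1152, 1209, 1223 and 1022) and lower at the 2-cell stage (506, 339.6 and 375, net -1.49). Those gained included general poly(A)-binding proteins. Pabpc1 went from 414, 174, 233 and 264 to 1167, 1478 and 1952 (2.49, SE 0.21, adjusted p = 3.08e-09 by limma) and Pabpc4 rose by 1.76 (1.27 as the mean over its probe sets). Ago2, the small-RNA effector, rose by 1.80, Igf2bp1 by 2.32 from dim signals, and Tob1, an antiproliferative partner of the deadenylase, by 1.99 after a dip at the 1-cell stage.

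Genes known for the burst of transcription at the 2-cell stage rose in 16 of 24 members, fell in 4 and had a median of 1.96 (1.18 after spike scaling, with 13 higher and 6 lower). The list, like the others, was chosen with earlier results of these data known, so its gain may in part reflect that choice. Crxos (104104_at), a homeobox gene, had the largest rise of all genes, each read through its brightest probe set. Its oocyte signals were 4.7, 5.6, 3.1 and 1.6 and its 2-cell signals 1489, 1324 and 3094, a difference of 6.97 (SE 0.22, adjusted p = 5.00e-16 by limma). The other probe set of Crxos rose by 4.10. Its mean over probe sets was 5.54, under the 6.72 of Pramel6. The PRAME family members Pramel6 and Pramel7, the second of which supports naive pluripotency, behaved alike in size. Pramel6 went from 12.8, 2.6, 11.2 and 3.7 to 1989, 1748 and 1931 (6.72) and Pramel7 from 46.1, 9.7, 17.6 and 4.6 to 2387, 2417 and 3498 (6.66). These 3 genes were dim on nearly every oocyte and 1-cell array and bright on every 2-cell array. With an offset of 1 in place of 11 the difference of Crxos was 8.67 and with 50 it was 5.13, so the fold itself is not fixed by the data. Eif1a, an initiation factor whose 2-cell transcripts mark the onset of transcription, rose from 32.4, 14, 17.8 and 13 to 382, 468 and 479 (3.94), while its other probe set was not called (0.65, adjusted p = 0.0898). Usp17la, a deubiquitinase of a 2-cell family, rose by 2.93 and stayed at modest signals (155, 119 and 66.7). The heat shock genes Hspa1a and Hspa1b, early marks of embryonic transcription, rose by 2.01 (SE 0.39) and 2.35 (SE 0.38). The Krüppel-like factors Klf4 and Klf5 rose by 3.48 and 2.96, Klf4 evenly to 432, 439 and 450.4. The 4 that fell were Jag2 (-2.84), a ligand of Notch, Arg2 (-1.72), U2af1l4 and Rfpl4.

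Pluripotency genes were higher in 18 of 33 members and lower in 2, with a median of 0.65 that was -0.002 after spike scaling (7 higher, 6 lower). Fbxo15, a marker of embryonic stem cells, rose in both steps, from 116, 191, 154 and 159 through 272, 373 and 328 to 5096, 5268 and 7649 (net 5.18, SE 0.18, adjusted p = 3.30e-15). Dppa4 fell at the 1-cell stage and then passed its oocyte level: 225, 377, 275 and 232 in oocytes, 41.8, 64.9 and 86.1 at the 1-cell and 2526, 2828 and 3632 at the 2-cell stage (net 3.39). Zfp42 took the same path at low signal, ending at 173, 178 and 129 (net 2.09). The core factors moved little by comparison. Pou5f1 gave 276, 241, 357 and 283 in oocytes and 459, 330 and 290.1 at the 2-cell stage, not called, with a difference of 0.29 and an interval of -0.13 to 0.72 (-0.59, not called, after spike scaling). Sox2 rose by 1.48 to 188, 129 and 75.6, a call lost after spike scaling (0.74). Nanog stayed near the dim level, at 42.5, 24.5 and 47 against 20.6, 18, 14.9 and 25.4, with overlapping arrays, and its call (0.65, adjusted p = 0.00757) was lost under median centring (0.43), quantile normalization (0.38), spike scaling (0.02) and without the third 2-cell array (0.52). Dppa5a, a small RNA-binding protein, dipped to 123, 136 and 178 at the 1-cell stage and regained most of its oocyte level (1261, 1577 and 2249 against 2795, 2425, 2434 and 2978, net -0.68, called lower).

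The synthesis of nucleotides, serine and folate-bound carbon units rose in 16 of 27 members and fell in 2, with a median of 0.83 (0.02 after spike scaling, with 10 higher and 7 lower). Psat1 (96295_at), an aminotransferase of serine synthesis, had oocyte signals of 10, 4.6, 3.4 and 17.7 and 2-cell signals of 1528, 2044 and 2578 (6.72, SE 0.24, adjusted p = 3.63e-15). Prps1 (95507_at), which makes the activated ribose for nucleotides, went from 63, 40.8, 41.7 and 57.4 to 4189.9, 4494 and 4629 (6.19, SE 0.18, adjusted p = 2.15e-16). Both ended among the bright transcripts of the 2-cell embryo. The glycine and serine enzymes Gldc and Shmt1 rose by 4.09 and 3.20, and the nucleoside diphosphate kinase Nme2 by 4.12 after a dip at the 1-cell stage. Ahcy, which clears the product of methylation reactions, fell by 2.42 on its brightest probe set, with the others at -1.31 and -0.34. In energy metabolism the isozymes of lactate dehydrogenase moved in opposite directions. Ldhb fell from 5669, 4858, 5581 and 5806 in oocytes to 2709.6, 1379 and 1070.4 (-1.78, SE 0.26, adjusted p = 7.15e-06), with no call at the 1-cell stage, and Ldha rose from 58.6, 11.6, 13.8 and 17.5 to 445, 515 and 331 (3.74, SE 0.36, adjusted p = 1.93e-08). Over the glycolysis list 10 of 25 rose, Pgam1 by 2.88 among them, and 8 fell (5 and 11 after spike scaling). Those shares, 40% and 32%, stand against 25.4% and 24.6% of all genes. Pdha1, the gate from pyruvate to the citrate cycle, fell by 1.21. In cholesterol synthesis 8 of 17 fell and 4 rose: the regulator Srebf1 fell by 1.92, Sqle rose by 2.80, and Idi1 rose at the 1-cell stage (1344, 1684 and 1454 against 409, 751, 523 and 411) and ended lower (375, 221 and 151, net -1.09).

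Further large gains fell in stress, redox and lysosomal genes. Mt2 (101561_at), a metallothionein that binds zinc, was steady in oocytes (135, 142, 141 and 154) and 1-cell embryos (135, 135 and 175) and reached 5678, 5655 and 8047 at the 2-cell stage, 41.5-fold over the oocyte (SE 0.17 on the log2 scale, adjusted p = 6.14e-16). Its neighbour in function Mt1 rose by 4.58 from dim signals. The redox list as a whole held 9 higher and 10 lower of 35 (3 and 20 after spike scaling), near the 25.4% and 24.6% of all genes. The cytosolic thiol carriers went down, Glrx from 3051, 4009, 3604 and 3539 to 481, 262 and 243 (-3.45) and Txn1 from 1742, 2088, 1569 and 1866 to 387, 254 and 219 (-2.65). Prdx4, the peroxiredoxin of the secretory pathway, rose by 4.03. Among lysosomal and autophagy genes 20 of 48 rose and 9 fell, a balance that became 10 higher and 19 lower after spike scaling. Map1lc3b, which coats the autophagosome, rose from 140.4, 118, 97.4 and 166 to 5440.4, 6033 and 8931 (5.58, the other probe set 1.45). The proteases Ctsl, Ctsc, Ctsa and Ctss rose by 5.99, 5.74, 3.69 and 3.06, although other probe sets of Ctsc gave 0.49 to 1.65. Ctsh and the cholesterol exporter of the lysosome Npc1 went the other way, falling from 1219, 1164, 1277 and 1154 to 149.8, 143 and 142 for Npc1 (-2.96) and showing -1.52 for Ctsh. Cd63, a tetraspanin of late endosomes, rose from 19.5, 17.1, 12.6 and 14.2 to 1415, 1469 and 2159.5 (5.96). Guca1a (103038_at), known as an activator of guanylate cyclase in photoreceptors, rose from 11.8, 19.6, 23.8 and 18.9 to 2802, 2994 and 2838 (6.63). Selenos, a selenoprotein of the endoplasmic reticulum, reached 1653, 1652 and 1649, almost the same value on each 2-cell array, from 24.4, 11.9, 9.5 and 12.1 in oocytes. Chaperones were balanced, 20 of 63 higher and 21 lower (6 and 34 after spike scaling), with Dnajb9 of the endoplasmic reticulum at 4.49 and the cochaperone Bag3 at 3.91 (its other probe set 1.89). Of genes that respond to p53 or arrest growth 6 of 18 rose and 1 fell (5 and 3 after spike scaling). Cdkn1a, an inhibitor of cyclin-dependent kinases, went from 18.8, 18.6, 26.5 and 19.4 to 223, 189.5 and 233 (2.83), and Gadd45a and Gadd45b rose by 2.20 and 2.20.

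Some markers of other cells were higher on the 2-cell arrays. Of 16 genes known for the oviduct and uterus that the array held, 12 were tested, 4 rose and none fell. The share that rose was 33.3%, against 25.4% of all genes, and 24.6% of all genes fell. The summed signal of the 16 was 726 to 831 on oocyte arrays, 839 to 1135 on 1-cell arrays and 1805 to 2422 on 2-cell arrays. Ovgp1, the glycoprotein that the oviduct secretes onto eggs, carried the largest part: 22.5, 47.2, 34.3 and 31.6 in oocytes and 1272, 715 and 688 at the 2-cell stage (4.30, SE 0.93, adjusted p = 5.35e-04). The first 2-cell array was the highest for Ovgp1, for Ltf (291, 171 and 167), the secreted iron binder of the uterus, and for Dcn (122, 77.1 and 68.9), a proteoglycan of connective tissue, whose call was lost without that array (0.98) and after spike scaling (0.49). The fourth, Pax8, stayed near or under the dim level (11.8, 53.6 and 35), and its call (1.07, adjusted p = 0.0334) was lost without any 1 oocyte array, without the second (0.74) or the third (0.98) 2-cell array, and under median centring (0.85), quantile normalization (0.82) and spike scaling (0.57). Of the other defining genes, 7 of the 16 were dim on every 2-cell array, among them Acta2, Col3a1 and Pgr. Blood markers rose in 2 (Lyz2 and Hba-a1, 2.40 and 1.57, the second not called after spike scaling, 0.86) and fell in 1 of 4 tested (Ighm, -1.33 on its brightest probe set and -0.43 to 1.19 on the others), sperm markers rose in 1 of 4 (Tnp1; in 0 after median centring or spike scaling, without the fourth oocyte array and without the second 2-cell array), and cumulus and granulosa markers in 1 (Nr5a2) of 4. The sperm and the cumulus and granulosa counts are each 25%, near the 25.4% of all genes. Nr5a2, which is also a pluripotency factor, had overlapping arrays, its 0.81 was not called after median centring (0.59), and it was -0.002 after spike scaling. The summed signals of these lists at the 2-cell stage against the oocyte were 397 to 470 and 372 to 444 for blood, 438 to 510.1 and 337 to 433 for sperm, and 401 to 450 and 434 to 486 for cumulus and granulosa cells. The part of such cells in the gains was not tested.

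Ribosomal protein genes were called lower than in oocytes mostly at the 1-cell stage. At the 1-cell stage 21 of 27 ribosomal protein genes were called lower than in oocytes, against 20.8% of all genes, and 1 was higher, with a median of -2.08. At the 2-cell stage 14 were called higher than in oocytes, 2 lower and 11 not called, with a median of 0.47 that turned to -0.41 after spike scaling (2 higher, 5 lower). Of the 27, 11 had a passing dip (4.45% of all genes) and 11 a dip with a net gain (3.87%), 3 of which meet both counts by being called inside the 2-fold bound. Rps18 gave 1201, 1066, 1498 and 1616 in oocytes, 86.8, 103 and 138 at the 1-cell stage and 847, 1012 and 2037 at the 2-cell stage. Its net difference of -0.14 was not called (interval -0.63 to 0.36), though it was called lower without the third 2-cell array (-0.51) and after spike scaling (-1.04). Rpl10a went from 962, 1509, 849.8 and 1337 through 35.7, 53 and 70.1 back to 1406, 1020 and 1669.9 (net 0.24, interval -0.23 to 0.71; -0.66, not called, after spike scaling). Rps3 overshot, from 622, 813, 763 and 776 through 49.1, 121 and 103 to 1562, 2031 and 2473 (net 1.41, SE 0.22, adjusted p = 1.18e-05, not called after spike scaling, 0.52). Rplp0 and Rps3a1 also ended higher, by 1.24 (0.34 and not called after spike scaling) and 1.75. The net gain of Rpl7, 0.59, was lost after median centring (0.37) and without the third 2-cell array (0.37), and turned to -0.31 after spike scaling. The 2 that ended lower, Rps4x (-0.58) and Rpl7a (-0.82), had also dipped, to 281, 338 and 394 for Rps4x against 3203, 4003, 3774 and 3899 in oocytes. Probe sets of ribosomal proteins can also hybridise with transcripts of their many pseudogenes.

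The nucleolus and the assembly of ribosomes rose in 41 of 72 genes and fell in 13, with a median of 0.72 that turned to -0.14 after spike scaling (20 higher, 26 lower). At the 1-cell stage 36 of the 72 had been lower and 5 higher, against 20.8% lower and 18% higher of all genes. Nop16, a nucleolar protein of the large subunit's assembly, had 63.3, 23.1, 34.7 and 46.4 in oocytes and 1116, 1097 and 1118 at the 2-cell stage (4.46, SE 0.21, adjusted p = 2.27e-13), and its other probe set gave 4.55. Nop2, a methyltransferase of ribosomal RNA, and the helicase Ddx54 rose by 3.31 and 3.35. Nhp2, a core protein of the particles that pseudouridylate ribosomal RNA, dipped first: 481, 598, 491 and 532 in oocytes, 51.8, 85.4 and 103 at the 1-cell and 1639, 1908 and 2678 at the 2-cell stage (net 1.93, SE 0.19, adjusted p = 3.17e-08). Some members of the same pathway that fell were bright in oocytes. Utp4 went from 2135, 2593, 2253 and 2039 to 690.1, 669 and 710 (-1.69), and Emg1 and Noc4l fell by 1.62 and 1.85.

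Most genes of the respiratory chain and the mitochondrial ribosome were lower than in oocytes at both stages, by less at the 2-cell stage in the list medians. In complex I, the first enzyme of the respiratory chain, 21 of 27 subunits and assembly factors were lower at the 2-cell stage than in oocytes and none was higher by limma, with a median of -1.08, and 20 had been lower at the 1-cell stage, with a median of -1.63. Of all genes 24.6% were lower than in oocytes at the 2-cell stage and 20.8% at the 1-cell stage. The count of gains in complex I was also 0 at an unadjusted p under 0.05. Ndufa5 gave 1044, 944, 1125 and 1450 in oocytes, 134, 159 and 212 at the 1-cell stage and 101, 85.3 and 167 at the 2-cell stage (-3.19, SE 0.21, adjusted p = 5.01e-11). Ndufb5 had 2722, 3283, 2823 and 3386, 318, 369 and 441 and 372, 299.7 and 536 (-2.92). In both the 1-cell and 2-cell signals were alike and under every oocyte array. Ndufb2 was not called, at 744, 618 and 1156 against 768, 713, 751 and 932 (interval -0.34 to 0.43; called lower, at -0.85, after spike scaling). In complexes II to IV 16 of 29 fell and 3 rose, and in ATP synthase 7 of 13 fell and 0 rose (0 at an unadjusted p under 0.05, by limma). Sdhd of complex II fell by 2.45 and the copper carrier Cox17 by 2.19, after a deeper dip at the 1-cell stage (111, 116 and 116, then 309, 459.6 and 835). Uqcrc2 of complex III was instead higher at the 1-cell stage (3198, 2397 and 2156 against 1266, 1815, 1121 and 1532) and low only at the 2-cell stage (232, 227 and 353). Cytochrome c, Cycs, rose by 1.67. The mitochondrial ribosome fell in 35 of 58 members and rose in 7, with a median of -0.76, and 42 had been lower at the 1-cell stage, with a median of -1.19. Mrps22 went from 1036, 1489.9, 1123 and 1281 to 143, 117 and 146 (-3.08) and Mrps31 fell by 2.99, while Mrpl20 and Mrpl43 rose by 2.41 and 1.76. The cytosolic and the mitochondrial ribosome thus had medians of opposite sign with the deposited scaling, 0.47 and -0.76, and of the same sign after spike scaling, -0.41 and -1.60. In a passing dip by contrast was the citrate cycle enzyme Mdh2, with 1258, 1186, 1331 and 1345, 121, 169.8 and 164 and 1197, 1199 and 1669 (net 0.07, interval -0.25 to 0.38; called lower, at -0.83, after spike scaling).

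**Figure D3:**
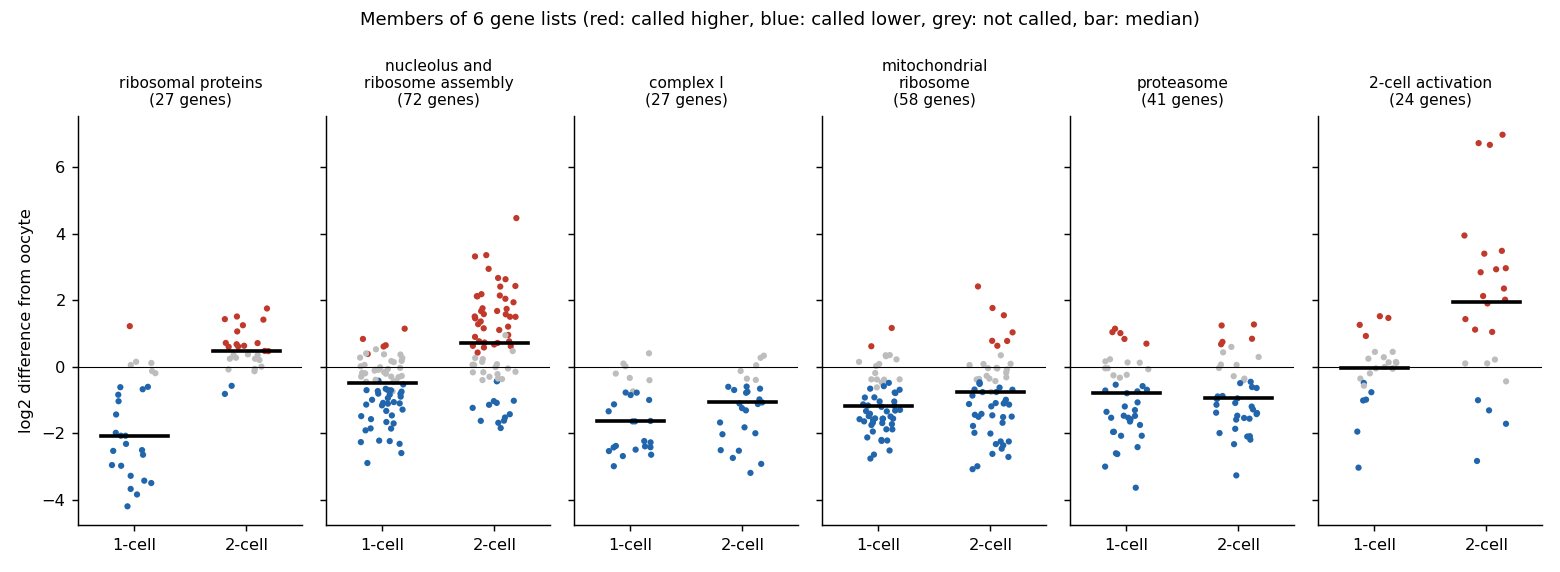
Difference from the oocyte (y axis, log2) at the 1-cell and 2-cell stage for each tested member of 6 gene lists, with the list median as a bar. Ribosomal proteins sit low at the 1-cell stage (median -2.08) and at or above the oocyte at the 2-cell stage (0.47, which turns to -0.41 after spike scaling; nucleolus 0.72, -0.14), whereas complex I, the mitochondrial ribosome and the proteasome have medians below 0 at both.

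The proteasome, which degrades ubiquitin-tagged proteins, fell in 27 of 41 genes and rose in 5, with a median of -0.95. Psma7, of the core ring, was not called different at the 1-cell stage and fell from 1957, 1968, 1656 and 2003 in oocytes to 227, 133 and 213 at the 2-cell stage (-3.27, SE 0.20, adjusted p = 1.97e-11). Psma5 of the same ring had begun earlier, with 246, 336 and 329.9 at the 1-cell stage (net -2.33). Psmd14, the lid's deubiquitinase, had a passing dip: 429, 561, 535 and 596, then 20.4, 31.1 and 49.8, then 457, 679 and 866 (net 0.29, interval -0.19 to 0.77; -0.60, not called, after spike scaling). Among those higher were the activator Psme4, which had risen by the 1-cell stage (net 1.27, not called after spike scaling, 0.37), and Psmb5, which rose by 0.84 after a deep dip (-0.04 and not called after spike scaling; its other probe set was not called). Enzymes that attach or remove ubiquitin were evenly divided, with 24 of 75 higher and 24 lower (10 and 40 after spike scaling). Of all genes 25.4% were higher and 24.6% lower. The ligase Mkrn1 rose from 56.1, 74.8, 54.9 and 66.1 to 4798, 4555 and 5204 on its brightest probe set (6.05, others 1.22 and 3.06).

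Genes of transcription, splicing and translation moved in both directions. Of RNA polymerase II subunits and general factors 11 of 38 rose and 8 fell, a split that turned to 6 and 11 after median centring and 3 and 18 after spike scaling. These shares were near the 25.4% higher and 24.6% lower of all genes. Gtf2b, which places the polymerase at the start site, fell from 3673, 6304, 4345 and 3634 to 1085, 586 and 464 (-2.70, SE 0.22, adjusted p = 1.71e-09), and the subunit Polr2g by 2.40. The subunit Polr2f rose from 545, 599, 513 and 508 to 2481, 2598 and 2878 (2.27) and Cdk9, the kinase that releases paused polymerase, by 2.15. In splicing 25 of 66 rose and 16 fell (20 and 21 after median centring, 10 and 30 after spike scaling). The share that fell was again near that of all genes. Hnrnpm and the SR proteins Srsf6 and Srsf5, which steer splice-site choice, rose by 3.28, 2.90 and 2.52, while Lsm3 fell from 1633, 2462, 1785 and 2110.1 to 373, 247 and 312 (-2.64). In translation 17 of 50 rose and 16 fell (10 and 18 after median centring, 6 and 22 after spike scaling). The release factors moved in opposite directions: Gspt2 fell from 1033, 984, 1182 and 954 to 116, 114 and 167 (-2.89) and Etf1 rose from 315, 429, 368 and 349.6 to 2182, 2096 and 2904 (2.67, other probe sets 0.65 to 2.92). Of aminoacyl-tRNA synthetases 11 of 21 fell and 4 rose. Eif2ak1, a kinase that lowers initiation, fell by 2.35. In nuclear transport 13 of 34 rose and 8 fell (6 and 16 after spike scaling), the share that fell also near that of all genes. The import receptors Kpna1 and Tnpo3 rose by 4.75 and 4.80, Kpna1 from signals of 3.7, 1, 1.8 and 1, and the pore proteins Nup88 and Nup85 fell by 1.82 and 1.74 after a rise at the 1-cell stage.

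**Figure D4:**
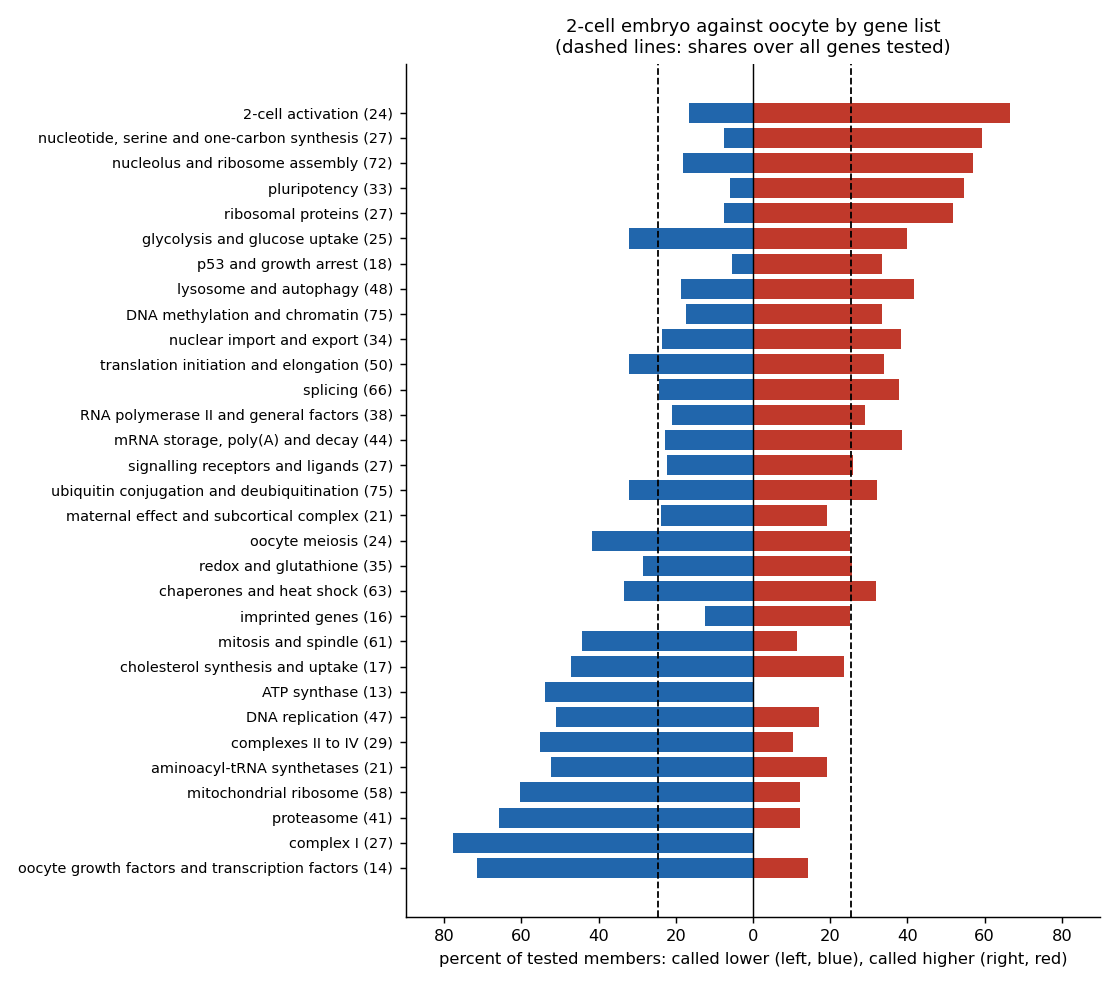
Share of tested members called lower (left) and higher (right) in 2-cell embryos than in oocytes for each gene list with at least 10 tested genes, ordered by median difference; dashed lines mark 24.6% lower and 25.4% higher over all genes. The right side is longest for 2-cell activation (16 of 24) and the left side for complex I (21 of 27). After spike scaling the medians of 12 of the 14 lists above 0 turn negative, all but 2-cell activation and nucleotide synthesis. The lists were chosen with earlier results of these data known.

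Cell-cycle genes were lost more often than gained. In DNA replication 24 of 47 fell and 8 rose, with a median of -0.55, and in mitosis and the spindle 27 of 61 fell and 7 rose, with a median of -0.31. Rpa1, which coats single-stranded DNA, kept its oocyte signal to the 1-cell stage (1260.1, 1249.7 and 1111) and fell from 1340.4, 1121, 1451 and 1293 to 266, 169 and 222 (-2.53). The primase subunit Prim2 and the polymerase subunit Pold2 fell by 1.72 and 2.53. Those higher included regulators of entry into S phase: Ccne1 (cyclin E) from 108, 51.3, 94.4 and 101 to 793, 893 and 1053 (3.25) and Gmnn, the inhibitor of origin licensing, from 557, 770.1, 501 and 683 to 2043, 2155 and 2275 (1.78), most of which was present at the 1-cell stage (1816, 1662 and 1781). The tubulin Tubb6 fell by 2.20 and the condensin subunit Ncaph by 2.23. Chromatin genes rose in 25 of 75 and fell in 13 (12 and 30 after spike scaling). H2az1, a histone H2A variant, rose from 583, 330.2, 356 and 341 to 3577, 3272 and 3103 (3.05, SE 0.22, adjusted p = 1.88e-10), and the variant H2ax fell by 1.99. The deacetylase Hdac1, the remodeller Chd1 and the acetyltransferase Kat2b rose by 3.33, 3.25 and 3.79. Hdac1 was dim at the 1-cell stage (10.4, 12.2 and 7.9), and its 2-cell signals (354, 425 and 492) were above every oocyte array (59.7, 34, 31.4 and 13.8). Of imprinted genes 4 of 16 rose, near the 25.4% of all genes, and 2 fell (1 and 10 after spike scaling). Usp29 rose by 2.14, Phlda2 by 1.30 (not called after spike scaling, 0.47), and Mest fell by 1.14.

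Receptors and ligands rose in 7 of 27 and fell in 6 (1 and 12 after spike scaling), near the 25.4% and 24.6% of all genes. Erbb3, a receptor of the EGF receptor family, rose from dim oocyte signals (26.6, 30.2, 32.3 and 27.8) to 203, 239 and 318 (2.70), and Il6st, the shared receptor of the LIF family, by 1.36 (not called after spike scaling, 0.56). Fgfr2, a receptor of fibroblast growth factors, fell by 1.66 on its brightest probe set, while the others ranged from -1.58 to 0.18. Actb, the usual control gene, rose by 0.75 (SE 0.17, adjusted p = 9.60e-04), which turned to -0.12, not called, after spike scaling.

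Other paths through the 1-cell stage are best seen in single genes. Gpn1, a GTPase that helps import RNA polymerase II, had a passing dip, with 2204, 2470.1, 2404 and 2635 in oocytes, 173, 169.7 and 239 at the 1-cell stage and 1707, 2114 and 2416 at the 2-cell stage (net -0.23, interval -0.57 to 0.10). Gpn1 was called lower after median centring (-0.46) and spike scaling (-1.14). A passing rise was seen for Satb1, an organiser of chromatin: 337, 374, 306 and 339.9, then 1508, 1226 and 1291, then 361, 321 and 209.9 (net -0.22, interval -0.60 to 0.16; called lower after spike scaling, -1.10). Cdkn1c, an imprinted inhibitor of cyclin-dependent kinases, rose to 696, 569.5 and 333 and returned to 167, 188 and 98.6 from 147, 117, 121 and 138 in oocytes (net 0.16; -0.69, not called, after spike scaling). The splicing factors Snw1 and Sf3b1 took the same path, with 1-cell signals of 681, 632 and 467 and 2835, 2789.9 and 2068 and net differences of 0.06 and -0.15 (after spike scaling -0.78, not called, and -1.05, called lower). A dip with a net gain was taken by Wipi2, which acts in autophagosome formation: 268, 235, 245 and 300.4, 58.1, 28.9 and 10.8 and 850.1, 1163 and 1046 (net 1.91, SE 0.25, adjusted p = 1.31e-06). Parp2, a sensor of DNA breaks, did likewise, with 318, 336, 329.6 and 413, 39.3, 25.6 and 51.9 and 753, 1199 and 1647 (net 1.69). A rise with a net loss was taken by Sepsecs, which makes selenocysteine on its tRNA: 198, 330.1, 236 and 223 in oocytes, 807, 909.6 and 592 at the 1-cell stage and 14.9, 32.1 and 42.5 at the 2-cell stage (net -2.70, SE 0.27, adjusted p = 3.85e-08). Ss18, a subunit of a chromatin remodeller, and Csnk1e, a casein kinase, followed it with net differences of -1.37 and -1.22. Judged on the 1-cell stage alone, Wipi2 and Gpn1 would both be losses and Satb1 and Sepsecs both gains, whereas their net changes differ.

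**Figure D5:**
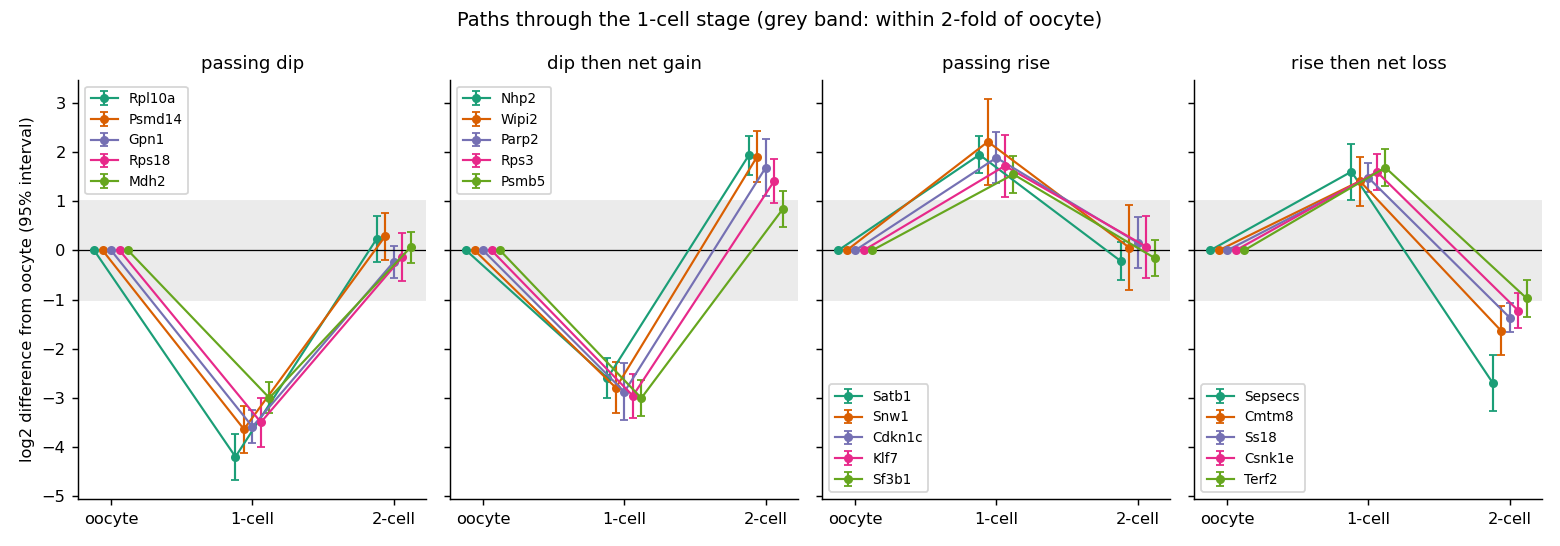
Difference from the oocyte (y axis, log2, with 95% intervals from the limma fit) at the 1-cell and 2-cell stage for 5 genes of each path; the grey band marks 2-fold. By definition, passing dips and rises end inside the band and the other 2 classes end called higher or lower. After spike scaling, Mdh2 (-0.83), Rps18 (-1.04), Gpn1 (-1.14), Satb1 (-1.10) and Sf3b1 (-1.05) are among the genes called lower. Rps3 (0.52) and Psmb5 (-0.04) are then not called, and 1 probe set has a rise with a net loss.

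The promoters of the genes with the largest net changes were searched for 10 short motifs, on both strands, in the 250 bases before the RefSeq start (build GRCm38.p6), for genes with a single promoter in that table: 238 of the 351 genes gained at least 4-fold (5.81% of all), 164 of the 247 lost at least 4-fold (4.09%), and 3872 of all genes tested. GGATTA, the core bound by bicoid-type homeodomains, was present in 8.4% of gained and 3.66% of lost promoters, against 5.01% of all tested and 6.58% of 22855 promoters of the same length. TAATTG, a core bound by many homeodomain proteins, was present in 2.1% of gained and 7.32% of lost promoters, against 4.29% of all tested and 7.49% of all promoters. These are 20 and 6, and 5 and 12 promoters, and the counts were not tested. For the other motifs the shares in gained, lost and tested promoters were: TATAAA 8.4%, 7.93% and 7.75%, CCAAT 34.0%, 39.6% and 37.4%, GGGCGG 60.9%, 53% and 60.6%, CACGTG 9.66%, 9.15% and 9.12%, GCCATNTT 5.04%, 4.88% and 4.78%, CCGGAAGT 7.56%, 10.4% and 6.53%, TGACGTCA 2.94%, 1.22% and 2.61%, and the CGCG element bound by BANP 1.68%, 1.22% and 0.93%. In percentage points, the gap between gained and lost promoters was wider for GGGCGG and CCAAT than for either homeodomain core. Relative to the share of all tested promoters, it was wider for the homeodomain cores. The motifs differ in how common they are, so these gaps do not rank them, and none was tested. The median number of CpG dinucleotides was 17 in gained and 14 in lost promoters, against 16 in all tested. Printed here, chosen after these shares were seen, are the promoters of the 3 genes with the largest gain that hold GGATTA and of the 3 with the largest loss that hold TAATTG, so that the match can be seen in its context. Each runs 5′ to 3′ in the gene's orientation, with the match, or its reverse complement (TAATCC or CAATTA), in capitals.
Guca1a, chr17:47400607-47400856, minus strand: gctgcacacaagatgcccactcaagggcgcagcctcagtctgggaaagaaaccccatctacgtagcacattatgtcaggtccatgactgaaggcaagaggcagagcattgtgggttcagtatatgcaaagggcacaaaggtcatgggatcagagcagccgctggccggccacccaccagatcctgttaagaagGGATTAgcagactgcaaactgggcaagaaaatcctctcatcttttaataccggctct
Prps1, chrX:140456353-140456602, plus strand: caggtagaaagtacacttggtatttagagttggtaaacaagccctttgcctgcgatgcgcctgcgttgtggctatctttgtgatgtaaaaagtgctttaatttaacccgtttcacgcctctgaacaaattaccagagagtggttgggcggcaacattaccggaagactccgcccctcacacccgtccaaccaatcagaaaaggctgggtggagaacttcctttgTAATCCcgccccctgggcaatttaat
Cd63, chr10:128909095-128909344, plus strand: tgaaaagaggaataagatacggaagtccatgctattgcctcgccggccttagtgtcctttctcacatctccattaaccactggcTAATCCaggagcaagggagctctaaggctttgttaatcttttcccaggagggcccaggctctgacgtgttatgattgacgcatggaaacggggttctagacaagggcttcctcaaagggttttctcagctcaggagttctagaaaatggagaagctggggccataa
Smim20, chr5:53266856-53267105, plus strand: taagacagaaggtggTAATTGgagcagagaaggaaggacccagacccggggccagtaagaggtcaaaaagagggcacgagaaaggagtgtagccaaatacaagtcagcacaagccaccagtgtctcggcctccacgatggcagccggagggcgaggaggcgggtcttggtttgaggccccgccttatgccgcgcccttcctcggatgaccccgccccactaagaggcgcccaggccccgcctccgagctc
Serpini1, chr3:75557243-75557492, plus strand: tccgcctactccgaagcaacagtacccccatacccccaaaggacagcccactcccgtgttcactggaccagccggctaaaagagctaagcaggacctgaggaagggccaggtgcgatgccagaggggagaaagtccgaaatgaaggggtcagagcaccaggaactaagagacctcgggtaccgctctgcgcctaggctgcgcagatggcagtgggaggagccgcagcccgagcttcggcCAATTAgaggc
Pex7, chr10:19907675-19907924, minus strand: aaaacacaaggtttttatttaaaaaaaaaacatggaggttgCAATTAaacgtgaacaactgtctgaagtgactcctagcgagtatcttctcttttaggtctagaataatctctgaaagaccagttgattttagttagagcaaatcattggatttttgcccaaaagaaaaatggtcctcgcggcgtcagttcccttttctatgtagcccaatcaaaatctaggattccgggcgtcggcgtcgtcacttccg
The match lay 57, 26 and 166 bases before the start in Guca1a, Prps1 and Cd63, and 235, 11 and 209 bases before it in Smim20, Serpini1 and Pex7. In these 3 lost genes the signal went from 498, 521, 507 and 452 to 50.9, 36.1 and 42.4 for Smim20, a small mitochondrial protein (-3.23), from 582, 741, 441 and 422 to 61.3, 51.9 and 49.8 for the protease inhibitor Serpini1 (-3.06), and from 378, 432, 384 and 390.3 to 52, 45.8 and 31.6 for Pex7, a receptor of peroxisomal import (-2.93). A match is a run of letters, not evidence of binding.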

How the data were processed

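Signal intensity per probe set was taken as deposited by the authors in 1 table of 17 MG-U74Av2 arrays. Per the labels, total RNA was amplified in 2 rounds of in vitro transcription. The deposited values are linear and scaled, since the mean of the middle 96% of values is 150.1 on every array. The software, the scaling target and detection calls are not given in the sources used here. Samples were grouped by title. The arrays' number limits the precision.

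Of 12488 probe sets, 66 controls were left out, and 8067 with a signal over 41.1 (the median value) on 3 arrays or more were tested. The offset of 11 is the 25th percentile of all values. limma 3.58.1 in R 4.3.3 (lmFit, eBayes with an intensity trend) fitted 1 mean per stage to log2(signal + 11) over all 17 arrays, with 12 residual degrees of freedom, and p-values were adjusted by the Benjamini-Hochberg method over all tested probe sets. A difference was called at an adjusted p under 0.05. On simulated data for the 2-cell to oocyte comparison, with 200 of 8067 probe sets changed, 5 of 67 changes of 0.5, 40 of 67 of 1 and 62 of 66 of 2 (log2) were called. The simulation also called 6 unchanged probe sets. Its noise was drawn independently, and far fewer probe sets were changed than the 49.1% called in the data. The adjusted threshold was therefore stricter there, and these rates do not carry over to the real comparison.

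GEO's platform annotation gave 10833 probe sets 1 symbol, 396 several and 1193 none, and 10817 symbols were matched to the RefSeq gene table by identifier. A gene was read through its brightest probe set with 1 symbol, which gave 6044 genes. Genes were named from the 20 largest rises and falls whose arrays do not overlap, the 10 largest 1-cell differences of each path, the 10 brightest steady genes, the 5 largest changes per direction of each of 37 lists, and landmark genes. Of the landmarks, Npm2 and Nlrp5 had no tested probe set. Smim20, Serpini1 and Pex7, named for their promoters, and the marker genes of other cells were chosen after their values were seen. The comparison, its members and the gene lists were chosen with earlier results of these data known. Alternatives changed the scaling, offset, filter, variance model, threshold, block and arrays used. Figures were drawn with matplotlib 3.10.9.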

Additional observations from a re-analysis of the deposited data

Results flagged for a closer look

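On the 4 oocyte arrays, 16 of the 191 genes checked had 1 array far from the other 3, with a gap to the nearest array that took more than 0.829 of the range, Dixon's 95% critical value. Chance alone gives about 1 in 20 such groups. The first oocyte array was high for Nme2 (0.948 of the range, 73.5 against 37.8 to 39.2), Bach1 (0.92, 11.5 against 1.5 to 2.1), Mrpl43 (0.919, 103.4 against 64.4 to 67) and H2az1 (0.867, 583.4 against 330.2 to 356.4). The second was high for Sdhd (0.95, 2143.1 against 1361.1 to 1392.6), Crabp2 (0.935, 1219.3 against 823 to 844.2), Lyz2 (0.889, 10.6 against 1.2 to 2), Polr2g (0.888, 2492.6 against 1744.2 to 1815.6) and Ctsh (0.836, 1673.2 against 1166.8 to 1237.8). The third was high for Cdkn1a (0.887, 26.5 against 18.6 to 19.4) and Calcoco2 (0.83, 1.4 against 0.8 to 0.9) and low for Psma7 (0.877, 1656.3 against 1956.5 to 2002.7). The fourth was low for Bmp15 (0.911, 842.8 against 1284.3 to 1338.3), Psma5 (0.889, 880.1 against 935.1 to 942.2), Sqle (0.874, 124.1 against 149.3 to 153.3) and Ctsa (0.872, 4.5 against 5.8 to 6). Bach1, Calcoco2, Ctsa, Lyz2 and Cdkn1a were dim on all 4. The call of Bmp15 depended on its array.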

How the results depend on the processing

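Of the 168 genes in the text that were called, 148 kept their direction and their call under every alternative tried on single genes. That number was 161 with spike scaling left out. The changes of filter, threshold and bound were not tried on single genes. Nor were the plain probe sets, the fit without the later stages or the fits without a 1-cell array. Spike scaling gave 777 probe sets higher and 3743 lower, with 4 passing rises and 1 rise with a net loss; the shift of all differences that this scaling makes is by construction. It turned Rpl7 (-0.31), Psmb5 (-0.040), Actb (-0.12) and Nr5a2 (-0.0024) from higher to lower without a call and had Ndufb2 (-0.85), Btg4 (-0.85), Mdh2 (-0.83) and Akirin2 (-0.81) called lower. The mean over probe sets also had Akirin2 called lower (-0.48). An adjusted p under 0.01 left 282 passing rises, 185 dips with a net gain and 165 rises with a net loss, and a 1.5-fold bound left 103 passing dips and 160 passing rises, as stricter limits must lower these counts. Without any 1 array of the stages compared, probe sets higher numbered 1837 to 2027, lower 1686 to 1803, passing dips 279 to 358, passing rises 343 to 408, dips with a net gain 252 to 306 and rises with a net loss 223 to 300. With the replicate number in the titles as a block, the replicate block fit gave 2008 higher and 1837 lower. The numbers did not pair the arrays: the deviations of same-numbered oocyte and 2-cell arrays correlated at -0.05, 0.04 and 0.04 over probe sets. All other settings left the 6 counts within 1.5 times, with 1508 to 2692 probe sets higher and 1502 to 2363 lower. The plain probe sets alone, a setting added after the data were seen, gave 1691 and 1533 of 6445. Dim signals limit the fold of genes near the offset.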

Other observations

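Some of the largest changes lay outside the gene groups described above. Spic, a transcription factor of the ETS family, went from 2.2, 22.4, 12.9 and 18.4 on the oocyte arrays to 757, 962 and 1652 on the 2-cell arrays (5.51, SE 0.26, adjusted p = 3.20e-13), with 1-cell signals of 26.5, 34.6 and 31.1. Bach1, a repressor that senses heme, was dim on every oocyte and 1-cell array and reached 456, 455 and 1189 (5.43, the other probe set 3.03). Calcoco2, a receptor of selective autophagy, rose by 5.63 to 386, 622 and 821. Among the falls, Cited2, a transcriptional coregulator, went in 2 steps from 1544, 1282, 1292 and 1226 through 303, 316 and 366 to 149, 58.1 and 53.6 (-3.91, SE 0.27, adjusted p = 1.46e-10). Aadac, a deacetylase of the endoplasmic reticulum, had completed its fall by the 1-cell stage (47.6, 63.8 and 47.4) and stood at 73.6, 63.6 and 28.3 at the 2-cell stage, against 402, 695, 743 and 640.4 in oocytes (-3.29). Ldhc, the lactate dehydrogenase of germ cells, dipped from 149, 40.5, 71.4 and 60.8 to 2.1, 1.6 and 7.3 and was back at 47, 64.4 and 88.4 (net -0.14, interval -0.81 to 0.53; called lower after spike scaling, -0.95).

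Several bright transcripts stayed within 2-fold at both stages on their brightest probe set. Tpt1, a translationally controlled tumour protein, gave 4070, 3774, 3872 and 4331 in oocytes, 2977, 2908 and 2823 at the 1-cell stage and 5497, 4741 and 4511 at the 2-cell stage, and its net difference of 0.29 (adjusted p = 0.0898) was -0.61, not called, after spike scaling. Mat2b, the regulatory subunit of the enzyme that makes S-adenosylmethionine, had oocyte signals of 4582, 5650.1, 5102 and 5378 and 2-cell signals of 5324, 5201 and 4291 (-0.07, interval -0.38 to 0.24; called lower after spike scaling, -0.98). Akirin2, a nuclear factor, gave 0.09 on its brightest probe set (interval -0.23 to 0.41) and -1.05 on its other, so its probe sets disagree. Gja1, a gap junction protein of the embryo, was not among the steady transcripts. It dipped at the 1-cell stage and ended at 379, 372 and 1011 against 619, 618, 163 and 292 in oocytes. The net difference of Gja1 was 0.49 and not called (-0.39 after spike scaling), and 0.14 as the mean over its probe sets.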
